A study of Mus musculus with 6 samples.

Results

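The genes described here are 10 of the 37 genes of the mouse mitochondrial genome: the 7 subunits of respiratory complex I that it encodes (mt-Nd1, mt-Nd2, mt-Nd3, mt-Nd4, mt-Nd4l, mt-Nd5 and mt-Nd6), cytochrome b (mt-Cytb) and the ribosomal RNAs mt-Rnr1 and mt-Rnr2. They were taken by exact symbol from a table of 43283 genes, and all 10 were found and passed the filter on low values. The table covers 6 RNA sequencing libraries of muscle stem cells sorted from the hindlimbs of female C57BL/6 mice, aged 8 to 12 weeks by the sample labels and 2 to 4 months by the series text. The sort took cells positive for α7-integrin and CD34 and negative for CD45, Sca1, CD31 and CD11b. The Vehicle group was cultured for 24 h with DMSO and the PGE2 group for 24 h with prostaglandin E2, a lipid signal of injured tissue, with 3 libraries each, in medium containing fetal bovine serum. The RNA came from 5000 to 10000 cells and was amplified as cDNA before library construction. No genetic change is named for either group. Separate animals or cultures are not named for the replicates. The p-values therefore rest on library-to-library spread, part of which may be technical.

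The mitochondrial genome is a small circle copied and transcribed inside the organelle. Each strand is read as a long precursor, from which most messages and the ribosomal RNAs are cut out at the tRNAs that lie between them. Nearly all messages come from the heavy strand, and mt-Nd6 is the only message of the light strand. Complex I takes electrons from NADH and cytochrome b is the catalytic core of complex III. The ribosomal RNAs build the mitochondrial ribosome that translates all of these messages. Muscle stem cells are known to gain mitochondria as they leave quiescence.

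The sequences shown first are those that decide how reads of neighbouring or duplicated genes can be told apart. All were read from GENCODE M21 transcripts (mm10, the build in the submitters' notes). On mm10 the reading frames of mt-Nd4l and mt-Nd4 share 7 bases, in capitals in the first line (chrM:10143-10197, plus strand), where the start of mt-Nd4 overlaps the stop of mt-Nd4l. The ends of mt-Nd5 and mt-Nd6 share 14 bases on opposite strands, in capitals in the second line (chrM:13528-13589, written on the plus strand).
mt-Nd4l/mt-Nd4: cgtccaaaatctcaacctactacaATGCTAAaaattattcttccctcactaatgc
mt-Nd5/mt-Nd6: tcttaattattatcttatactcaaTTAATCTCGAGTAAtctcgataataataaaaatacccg
The annotated messages of mt-Nd4 (chrM:10167-11544, 1378 bases) and mt-Cytb (chrM:14145-15288, 1144 bases) run 1 base past a whole number of codons. Their last bases are shown with that base in capitals (chrM:11514-11544 and chrM:15258-15288). As background, such a lone T is completed to a stop codon by the poly(A) tail.
mt-Nd4 end: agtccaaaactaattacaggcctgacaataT
mt-Cytb end: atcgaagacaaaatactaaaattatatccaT

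Nuclear DNA holds copies of mitochondrial DNA, and 3 of the 10 genes have an identical or nearly identical copy in 1 block of 1585 bases on chromosome 1 (mm10 chr1:24611535-24613119, minus strand). The copies are annotated as unprocessed pseudogenes and are rows of the same table. Gm28438 matched the first 345 of the 348 bases of mt-Nd3 with 1 mismatch. Gm10222 matched the first 294 of the 297 bases of mt-Nd4l with 0 mismatches. Gm28439 matched the first 876 bases of mt-Nd4 with 0 mismatches, so that the last 502 bases of mt-Nd4, from position 11043, have no partner in that block. The only base that differs between mt-Nd3 and Gm28438 is T3C, counted from 1 at the first base of the message. It is in capitals in the pair of lines below (chrM:9459-9491 and chr1:24613087-24613119), and the lines that follow give the first 60 bases of mt-Nd4l (chrM:9877-9936) and of mt-Nd4 (chrM:10167-10226), the same letters as in the copies.
mt-Nd3 start: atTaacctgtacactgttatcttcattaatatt
Gm28438 start: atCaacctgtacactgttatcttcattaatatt
mt-Nd4l and Gm10222: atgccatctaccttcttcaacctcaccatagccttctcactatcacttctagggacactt
mt-Nd4 and Gm28439: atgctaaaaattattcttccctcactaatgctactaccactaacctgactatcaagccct
A read that lies within these stretches cannot be assigned to the organelle or to chromosome 1 by its sequence, apart from a read that covers position 3 of mt-Nd3. Lower-identity copies also met the rule of 95% identity over 90% of the copy or the gene: Gm13339 on chromosome 2 for mt-Nd2 (510 bases, 17 mismatches) and Gm4076 on chromosome 13 for mt-Nd5 (954 aligned bases, 45 mismatches). No copy in the table met that rule for mt-Nd1, mt-Nd6, mt-Cytb, mt-Rnr1 or mt-Rnr2.

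Values are TPM, a length-corrected share of the transcripts in a library, which the authors deposited with no read depth, so the depth behind each value is unknown. The 10 genes held between 18.7% and 31.05% of all TPM in a library. Of the TPM listed for genes of the mitochondrial genome they held between 87.6% and 92.3%. Nuclear copies of mitochondrial messages are not counted in that base. They held from 0.41% (PGE2 1) to 2.13% (PGE2 3) of all TPM. The cells carried the markers of the labelled type. All 13 muscle stem cell markers checked reached 1 TPM in at least 3 libraries, with Pax7 between 23.9 and 67.0 TPM and Myf5 between 120 and 303 TPM. Myod1, at 89.5 to 146 TPM, was above Pax7 in every library. Of the positive sort markers, Itga7 read only 2.69 to 13.16 TPM and Cd34 12.41 to 26.16 TPM. Cdh15 (0 to 5.15 TPM) and Chrdl2 (0 to 17.75 TPM) were low. Both were highest in PGE2 1 and under 1 TPM in PGE2 2 and PGE2 3. Under Vehicle, Cdh15 was at 0 in Vehicle 3 and Chrdl2 at 0.59 TPM in Vehicle 1. The summed TPM of 10 markers of differentiated muscle ran from 33.8 to 54.2 under Vehicle and from 13.5 to 22.4 under PGE2, without overlap, with Ttn the highest of them in every library. That of 9 leukocyte markers ran from 2.26 to 9.50 under Vehicle and from 8.03 to 15.0 under PGE2. For 7 endothelial markers it ran from 4.16 to 7.42 and from 6.90 to 19.9. For 7 fibro-adipogenic markers it ran from 26.2 to 39.0 and from 39.9 to 51.0, higher under PGE2 and also without overlap. Col3a1 was the highest of these in every library, at 15.3 to 36.5 TPM. Ly6a ran from 0 to 13.55 TPM, highest in PGE2 2, and Col1a1 from 0 to 14.43 TPM, highest in PGE2 3. Cldn5 of the endothelial list was at 0 in every library. The sum of 5 glial markers ran from 107 to 167 TPM under Vehicle and from 121 to 172 TPM under PGE2. Most of it was Ncam1, at 102 to 163 TPM. For 7 pericyte and smooth muscle markers the sum ran from 7.22 to 16.6 and from 10.5 to 12.7 TPM, with Pdgfrb at 0 throughout. Among 5 red cell markers, 4 were at 0 throughout and the sum reached at most 2.81 TPM. The part of these cells in the results below was not tested. In bulk RNA a lower level can mean fewer cells that express a gene or less RNA per cell, which cannot be told apart here.

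With PGE2, none of the 10 mitochondrial genes passed the test, and for none did the 3 PGE2 values separate from the 3 Vehicle values. The messages instead stood apart by library, and the ribosomal RNAs followed another order. Without the nuclear copies, PGE2 1 was the lowest library for all 8 messages and PGE2 2 the highest for 6 of 8. Summed with the copies, these counts were 7 of 8 and 5 of 8, or 7 of 8 and 6 of 8 by length. Over all tested genes that averaged at least 5 TPM, the shares were 13.4% and 16.7%. Fitted log2 changes, PGE2 minus Vehicle on log2(TPM + 1), ran from -0.20 (mt-Nd6) to 0.24 (mt-Nd4l). Of all 12781 tested genes, 0 (0.00%) passed limma at a Benjamini-Hochberg adjusted p under 0.05, 464 (3.63%) had an unadjusted p under 0.05 and 1024 (8.01%) had groups that did not overlap. The 10 genes gave 0 in each of these counts.

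**Figure D1:**
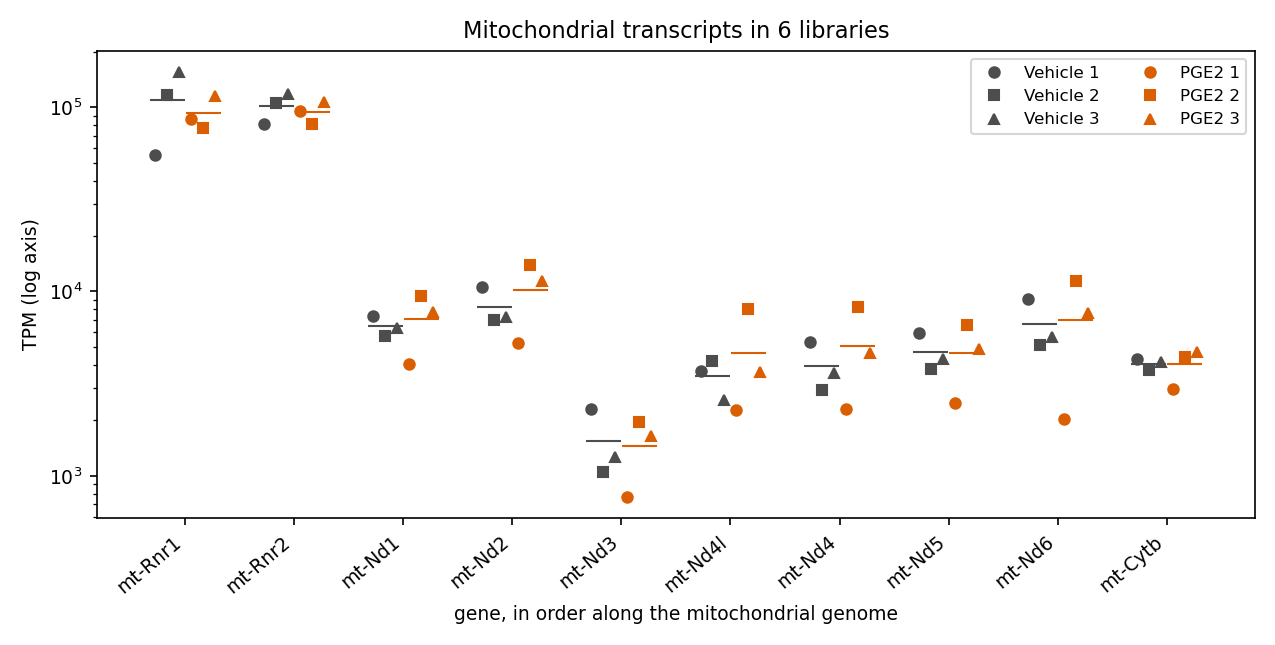
TPM of the 10 mitochondrial genes (log axis) in the 3 Vehicle libraries (grey) and the 3 PGE2 libraries (orange), with the marker shape giving the replicate number and the short line the group mean. The ribosomal RNAs lie far above the messages, the groups overlap for every gene, and PGE2 1 (orange circle) is the lowest point of all 8 messages.

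The ribosomal RNAs were the top 2 genes of the whole table by mean TPM. mt-Rnr1 (ENSMUSG00000064337, chrM:70-1024, plus strand) is the 12S RNA of the small ribosomal subunit. It was listed at 55240, 115840 and 155358 TPM across Vehicle 1 to 3 and at 86370, 77173 and 114749 TPM across PGE2 1 to 3. The spread was larger under Vehicle, where Vehicle 1 was the lowest and Vehicle 3 the highest of all 6 libraries, 2.81-fold apart, and the PGE2 values lay between them. mt-Rnr2 (ENSMUSG00000064339, chrM:1094-2675, plus strand), the 16S RNA of the large subunit, was at 81600, 105871 and 118562 TPM under Vehicle and at 94989, 81042 and 106266 TPM under PGE2. Its highest and lowest libraries were only 1.46-fold apart, the narrowest range among the 10 genes.

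Group means were 108813 ± 50428 TPM under Vehicle and 92764 ± 19587 TPM under PGE2 for mt-Rnr1 (mean ± SD, n = 3 each). For mt-Rnr2 they were 102011 ± 18781 and 94099 ± 12636 TPM (mean ± SD, n = 3 each). The log2 change was -0.13 (95% confidence interval -2.14 to 1.89) for mt-Rnr1 and -0.11 (-2.04 to 1.82) for mt-Rnr2, each with a limma Benjamini-Hochberg adjusted p of 1.00. The width of these intervals depended on the variance prior, the filter and the scaling. With a robust prior they were -1.07 to 0.82 and -0.86 to 0.65, and with a prior without a trend in the mean level, an alternative added after the data were seen, -1.24 to 0.98 and -0.97 to 0.75. A filter of 5 TPM gave -1.46 to 1.21 and -1.28 to 1.07. Other settings widened them: no filter gave -3.99 to 3.73 and -3.95 to 3.73, and median-ratio scaling -2.66 to 2.52 and -2.57 to 2.46. Both changes turned positive without Vehicle 3, at 0.19 and 0.01.

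The ribosomal RNAs lie next to each other on the precursor, separated only by a tRNA, yet their ratio was not fixed. mt-Rnr2 over mt-Rnr1 was 1.48, 0.914 and 0.763 across Vehicle 1 to 3 and 1.10, 1.05 and 0.926 across PGE2 1 to 3. The Vehicle libraries held the highest and the lowest ratio. The difference of the mean log2 ratios was 0.02 (exact two-sided permutation test, n = 3 each, p = 0.90, Benjamini-Hochberg adjusted p = 1.00 over 9 sums and ratios). With 3 libraries against 3 this test cannot give a p below 0.10.

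Among the complex I messages of the heavy strand, mt-Nd1 and mt-Nd2 come first on the genome. Their proteins sit in the membrane arm of complex I. mt-Nd1 (ENSMUSG00000064341, chrM:2751-3707) read 7367, 5713 and 6373 TPM under Vehicle and 4055, 9504 and 7693 TPM under PGE2. PGE2 1 lay below every Vehicle library and the other PGE2 libraries lay above every Vehicle library. mt-Nd2 (ENSMUSG00000064345, chrM:3914-4951) read 10597, 6995 and 7258 TPM under Vehicle and 5285, 13949 and 11403 TPM under PGE2, with the same arrangement. mt-Nd2 was higher than mt-Nd1 in 6 of 6 libraries, by 1.14- to 1.48-fold per length. mt-Nd1 had a log2 change of 0.05 (95% confidence interval -1.01 to 1.11) and mt-Nd2 of 0.21 (-0.96 to 1.39), with limma Benjamini-Hochberg adjusted p-values of 1.00. Without PGE2 2 they turned to -0.21 and -0.07. Summed with its copy on chromosome 2, mt-Nd2 had a log2 change of 0.22.

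mt-Nd3, mt-Nd4l and mt-Nd4 encode further subunits of the membrane arm and are the genes with copies on chromosome 1. mt-Nd3 (ENSMUSG00000064360, chrM:9459-9806) was the lowest of the 10 genes, at 2299, 1052 and 1257 TPM under Vehicle and 769, 1964 and 1639 TPM under PGE2. Its copy Gm28438 was listed at 0, 425 and 0 TPM under Vehicle and at 1126, 131 and 0 TPM under PGE2. The copy thus took 59.4% of the pair in PGE2 1 and 28.8% in Vehicle 2, the libraries where mt-Nd3 was lowest. The sums were 2299, 1477 and 1257 TPM under Vehicle and 1896, 2096 and 1639 TPM under PGE2, and in the sums PGE2 1 was no longer the lowest. The log2 change was -0.10 (95% confidence interval -1.11 to 0.91) for mt-Nd3 alone and 0.20 (-0.57 to 0.98) for the sum, neither past limma's test (Benjamini-Hochberg adjusted p = 1.00).

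mt-Nd4l (ENSMUSG00000065947, chrM:9877-10173) was listed at 3713, 4208 and 2573 TPM under Vehicle and at 2271, 8029 and 3655 TPM under PGE2. Gm10222 was at 1896, 0.35 and 1600 TPM under Vehicle and at 14.1, 0 and 1445 TPM under PGE2. The split of the same sequence between organelle and chromosome 1 ran from 0% to 38.3% for the copy, with Vehicle 2, PGE2 1 and PGE2 2 giving it under 1%. Their sum was 5608, 4209 and 4173 TPM under Vehicle and 2285, 8029 and 5100 TPM under PGE2, and kept PGE2 1 as the lowest and PGE2 2 as the highest library. The log2 change was 0.24 (95% confidence interval -0.89 to 1.38) alone and -0.02 (-1.12 to 1.07) summed.

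mt-Nd4 (ENSMUSG00000064363, chrM:10167-11544) was listed at 5322, 2928 and 3613 TPM under Vehicle and at 2298, 8220 and 4641 TPM under PGE2. Gm28439 was at 3373, 3005 and 2434 TPM under Vehicle and at 2710, 0 and 3028 TPM under PGE2. PGE2 2, where mt-Nd4 was highest, is the library that lists the copy at 0. The highest and the lowest library were 3.58-fold apart for mt-Nd4 alone and 1.74-fold apart for the sum. The sums were 8694, 5933 and 6048 TPM under Vehicle and 5009, 8220 and 7669 TPM under PGE2, with Vehicle 1 the highest. The log2 change was 0.21 (95% confidence interval -0.95 to 1.38) alone and 0.01 (-0.94 to 0.95) summed. Since the copy is shorter than the message, a sum weighted by length was added after the data were seen. It gave a log2 change of 0.07 and a 2.04-fold range, with PGE2 2 the highest library again at 8220 TPM, beside 7466 TPM in Vehicle 1.

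**Figure D2:**
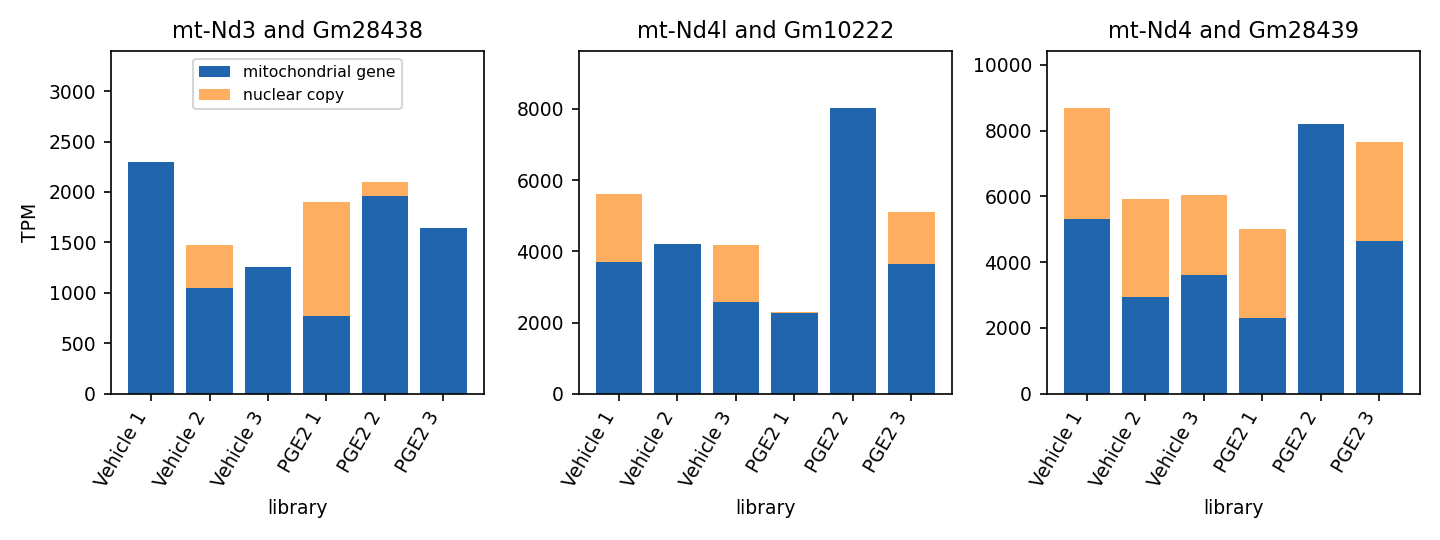
TPM listed for mt-Nd3, mt-Nd4l and mt-Nd4 (blue) and, stacked on top, for the chromosome 1 copy of each (orange), in the 6 libraries. The share of the copy differs from library to library for each pair, from 0% to 59.4%.

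mt-Nd5 (ENSMUSG00000064367, chrM:11742-13565), the longest message of the genome, encodes the subunit at the far end of the membrane arm. It read 5985, 3820 and 4283 TPM under Vehicle and 2472, 6608 and 4877 TPM under PGE2. Again PGE2 1 was lowest and PGE2 2 highest, with Vehicle 1 next to PGE2 2. Its log2 change was -0.10 (95% confidence interval -1.16 to 0.96). Gm4076, its copy on chromosome 13, stayed between 3.31 and 145 TPM and moved the log2 change only to -0.09. mt-Nd5 over mt-Nd1 compares the far with the near part of the heavy-strand precursor. That ratio was 0.812, 0.669 and 0.672 under Vehicle and 0.610, 0.695 and 0.634 under PGE2 (exact two-sided permutation test on log2 ratios, n = 3 each, p = 0.30, adjusted p = 1.00). Of the 9 sums and ratios it had the smallest p. The difference of the mean log2 ratios was -0.15, and -0.05 without Vehicle 1.

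mt-Nd6 (ENSMUSG00000064368, chrM:13552-14070, minus strand) is the complex I message of the light strand. It read 9143, 5124 and 5687 TPM under Vehicle and 2045, 11335 and 7603 TPM under PGE2. The PGE2 libraries spanned 5.54-fold, the widest range among the 10 genes, against 1.78-fold under Vehicle. Its log2 change was -0.20 (95% confidence interval -1.62 to 1.22, limma Benjamini-Hochberg adjusted p = 1.00), and 0.53 without PGE2 1. mt-Nd6 over the sum of the 6 heavy-strand complex I messages was 0.259, 0.207 and 0.224 under Vehicle and 0.119, 0.235 and 0.224 under PGE2. PGE2 1 stood below the other 5 libraries, which lay between 0.207 and 0.259, and the groups overlapped (exact two-sided permutation test on log2 ratios, n = 3 each, p = 0.50, adjusted p = 1.00). Without PGE2 1 the difference of the mean log2 ratios was 0.00, against -0.31 with it. Whether reads were counted by strand is not given in the sources used here. RNA of the heavy-strand precursor that lies opposite mt-Nd6 may therefore be part of its value and cannot be told apart.

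mt-Cytb (ENSMUSG00000064370, chrM:14145-15288, plus strand) is the last heavy-strand message and the only complex III subunit of this genome. It was the steadiest message, at 4310, 3744 and 4135 TPM under Vehicle and 2972, 4397 and 4697 TPM under PGE2. Only PGE2 1 lay below 3744 TPM. The means were 4063 ± 290 and 4022 ± 922 TPM (mean ± SD, n = 3 each), and the log2 change of -0.04 (95% confidence interval -0.91 to 0.83) was the smallest in size of the 10. The highest and the lowest library were 1.58-fold apart.

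**Figure D3:**
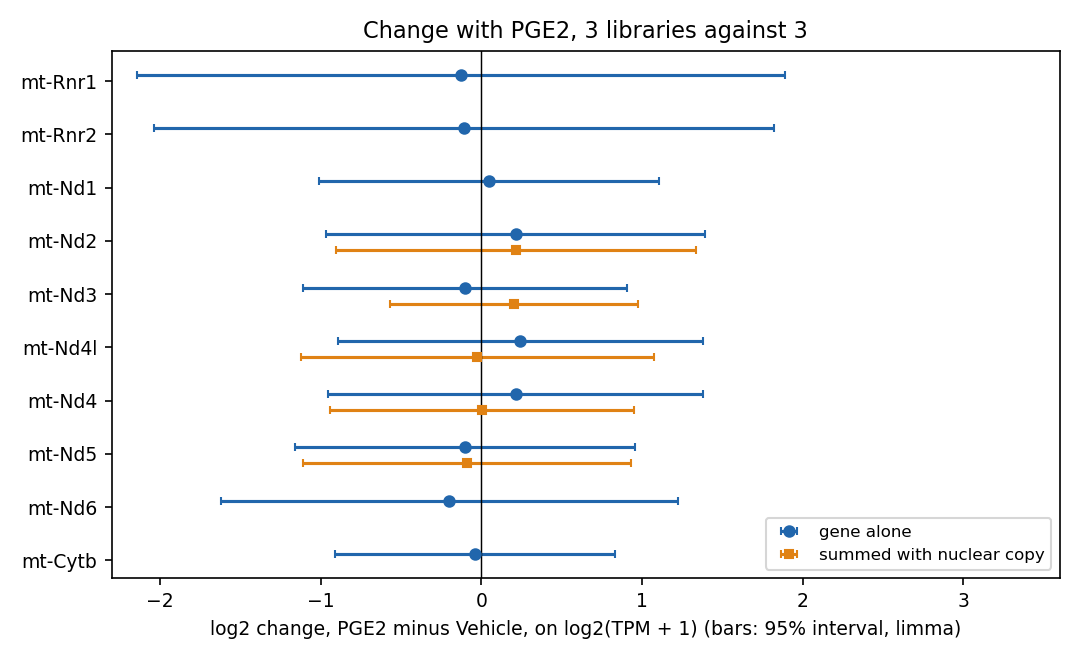
Log2 change with PGE2 (limma on log2(TPM + 1), 3 libraries against 3, bars are 95% confidence intervals) for each gene alone (blue circles) and, for the 5 genes with a copy, summed with it (orange squares). Every interval includes 0, and adding the copy shifts mt-Nd3, mt-Nd4l and mt-Nd4 the most.

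In the main fit, the 95% confidence intervals reached between 0.87 and 2.02 on either side of the estimate on the log2 scale. That is 1.83- to 4.04-fold, and changes of such a size lie within what these 6 libraries allow. The median log2 change of the 10 genes was -0.07, the same as that of all tested genes (-0.07), with 4 higher and 6 lower fitted values. Scaling each library to the genes outside the mitochondrial genome turned no sign among the 10 genes: the fitted folds then ran from 0.855 (mt-Nd6) to 1.16 (mt-Nd4l).

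By length-corrected level over all 6 libraries, the ribosomal RNAs averaged 100788 TPM (mt-Rnr1) and 98055 TPM (mt-Rnr2), and each was above the other in 3 of 6 libraries. The messages, without their copies, followed with mt-Nd2 at 9248, mt-Nd6 at 6823, mt-Nd1 at 6784, mt-Nd5 at 4674, mt-Nd4 at 4504, mt-Nd4l at 4075, mt-Cytb at 4042 and mt-Nd3 at 1497 TPM. The ribosomal RNAs did not overlap in range with mt-Nd2, nor mt-Cytb with mt-Nd3. Within a library, mt-Nd2 was above mt-Nd6 and mt-Nd1 above mt-Nd5 in 6 of 6 libraries. mt-Nd6 and mt-Nd1, and mt-Nd4l and mt-Cytb, changed places from library to library, with the gene named first higher in 2 of 6. mt-Nd4 was above mt-Nd4l in 5 of 6 libraries. Adding the copies changes this order: mt-Nd4 averaged 6929 TPM, or 6045 TPM by length, and mt-Nd4l 4901 TPM, or 4892 TPM by length, each above mt-Nd5 at 4711 TPM, or 4694 TPM by length.

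**Figure D4:**
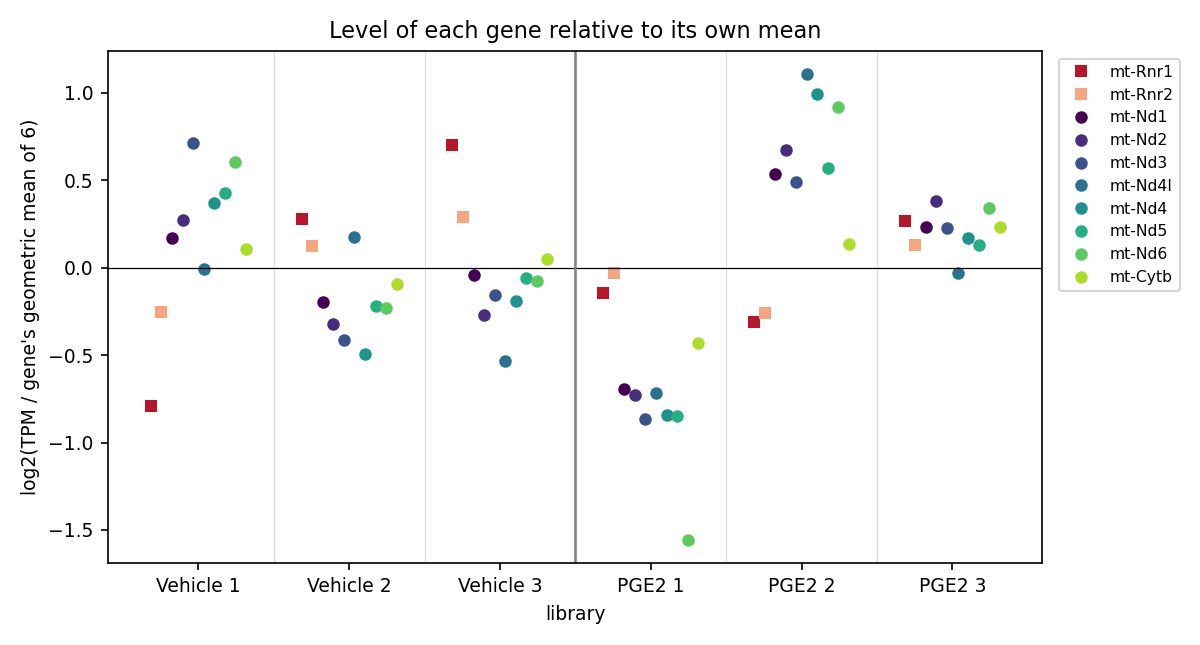
Level of each gene in each library as log2 of its TPM over its own geometric mean of the 6 libraries, with messages as circles and ribosomal RNAs as red or pink squares. The messages, without their copies, lie together below 0 in PGE2 1 and above 0 in PGE2 2. The ribosomal RNAs are lowest, against the messages, in Vehicle 1 and PGE2 2.

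Without their copies, all 8 messages lay below their own means in PGE2 1 and above them in PGE2 2. In the other libraries mt-Nd4l alone often went against the rest: it was at 0.18 on the log2 scale in Vehicle 2, where the other 7 were below 0. That library listed its copy at 0.35 TPM. Summed with the copy, mt-Nd4l was at 4209 TPM in Vehicle 2, below its arithmetic mean of 4901 TPM. Summed in the same way, mt-Nd3 was at 1896 TPM in PGE2 1, above its arithmetic mean of 1777 TPM. Relative to each gene's own mean, the median message was at 0.32, -0.23 and -0.12 on the log2 scale across Vehicle 1 to 3 and at -0.79, 0.62 and 0.23 across PGE2 1 to 3. mt-Rnr1 was at -0.79, 0.28 and 0.70 under Vehicle and at -0.15, -0.31 and 0.26 under PGE2. In Vehicle 1 and PGE2 2 the median message was thus above 0 and both ribosomal RNAs were below it. The sum of both ribosomal RNAs was 2.81, 6.60 and 7.79 times that of the 8 messages under Vehicle and 8.18, 2.47 and 4.78 times under PGE2. Each group thus held both a low and a high library, and the difference of the mean log2 ratios was -0.19 (exact two-sided permutation test, n = 3 each, p = 0.80, adjusted p = 1.00).

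As shares of the library, the ribosomal RNAs held 13.8%, 22.3% and 27.5% of TPM under Vehicle and 18.3%, 15.9% and 22.2% under PGE2. The 7 complex I messages held 4.47%, 3.00% and 3.12% under Vehicle and 1.93%, 6.00% and 4.17% under PGE2. The means for complex I were 3.53% ± 0.82 and 4.03% ± 2.04 (SD, n = 3 each), overlapping between the groups (exact two-sided permutation test, p = 0.80, adjusted p = 1.00). The number of genes listed above 0 moved across libraries as well, at 19677, 18201 and 16446 under Vehicle and 15400, 16558 and 17710 under PGE2. PGE2 1 was the lowest of the 6 in this count. Within Vehicle, the library with the most genes above 0 had the smallest ribosomal RNA share and the one with the fewest the largest, an order that PGE2 did not show. The part of library complexity in these levels was not tested.

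Without the copies, the spread between libraries was wider under PGE2 for all 8 messages and narrower for both ribosomal RNAs. Summed with its copy, mt-Nd3 was narrower under PGE2, with a 1.28-fold range against 1.83-fold under Vehicle. The median SD of log2(TPM + 1) over the messages was 0.73 under PGE2 and 0.35 under Vehicle. Over the 8370 tested genes that averaged at least 5 TPM it was 0.59 and 0.37, and 70.5% of them had the larger SD under PGE2. PGE2 1 was the lowest library for 13.4% of those genes and PGE2 2 the highest for 16.7%. For the messages these numbers were 8 of 8 and 6 of 8, also after scaling to the nuclear genes, and 7 of 8 and 5 of 8 after adding the copies, or 7 of 8 and 6 of 8 with the copies weighted by length. Both libraries were picked from the values of the messages themselves, so the shares over all genes are a description and not a test. The messages are cut from shared precursors, so they are not independent of each other.

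The other mitochondrial messages encode 3 subunits of cytochrome c oxidase and 2 of ATP synthase. mt-Co1 was at 8142 ± 1997 TPM under Vehicle and 6476 ± 2249 TPM under PGE2, and mt-Atp8 at 13017 ± 2128 and 13652 ± 6480 TPM (mean ± SD, n = 3 each). Unlike the 8 messages above, mt-Co1 was lowest in PGE2 2, at 4787 TPM, and highest in Vehicle 3, at 10410 TPM. mt-Atp8 was lowest in PGE2 1, at 6851 TPM, and highest in PGE2 3, at 19755 TPM. mt-Co2, mt-Co3 and mt-Atp6 have identical copies on chromosome 1 (mm10 chr1:24613189-24615565), next to the block with the copies of mt-Nd3, mt-Nd4l and mt-Nd4. Alone, their log2 changes were 1.74, -2.27 and 1.72. For mt-Co2 and mt-Atp6 alone the groups did not overlap (unadjusted limma p of 0.0053 and 0.0017), and neither passed after Benjamini-Hochberg adjustment. With copies included the changes were 0.16, -0.01 and 0.07, within the range of the 10 genes, and the groups overlapped. These sums were all lowest in PGE2 1, so that trait was not particular to the messages of the 10 genes. Their highest libraries were PGE2 2 for mt-Co2, Vehicle 3 for mt-Co3 and PGE2 3 for mt-Atp6. Gm29216, a chromosome 1 copy of part of mt-Co1, was at 817 TPM in PGE2 2 and between 7.40 and 60.65 TPM elsewhere. With copies included, mt-Co1 had a log2 change of -0.28, against -0.36 alone. Its sums in PGE2 2 and PGE2 1 were then close, at 5615 and 5627 TPM. mt-Co3 was listed at 0.21 TPM in PGE2 3, where its copy Gm28437, named after its values were seen, was at 4158 TPM. All 22 mitochondrial tRNAs were listed at 0 in every library.

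Nuclear genes build the rest of these complexes. Of 36 tested nuclear complex I subunits, 15 had higher and 21 lower fitted values with PGE2 (median log2 change -0.06), and 0 passed the test. Their summed TPM was 2676, 2114 and 1511 under Vehicle and 1753, 2238 and 1887 under PGE2, overlapping between the groups. Of 15 complex I assembly factors 8 were higher and 7 lower (median 0.04), and of 15 complex III subunits and assembly factors 11 were higher and 4 lower (median 0.20). No gene of these 3 lists had an unadjusted p under 0.05.

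Nuclear genes also make, process and translate mitochondrial RNA. In the list for mitochondrial DNA replication and transcription, 5 of 16 tested genes were higher and 11 lower (median log2 change -0.26), beside 43.9% higher over all tested genes. Without Vehicle 1 that median was 0.04. Tfam, which packs the genome and starts its transcription, read 23.0, 10.8 and 14.8 TPM under Vehicle and 20.6, 15.1 and 8.42 TPM under PGE2. Polrmt, the mitochondrial RNA polymerase, read 10.1, 11.2 and 7.78 TPM under Vehicle and 11.1, 0.84 and 0.16 TPM under PGE2. PGE2 1 lay among the Vehicle values of Polrmt and the other PGE2 libraries far below them. Its log2 change was -1.84 (95% confidence interval -3.66 to -0.03), with a limma p of 0.0472 before and 1.00 after Benjamini-Hochberg adjustment.

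Of the genes for processing, stability and modification of mitochondrial RNA, 20 of 35 were higher and 15 lower (median log2 change 0.08). Lrpprc and Slirp, partners that bind and stabilise mitochondrial messages, were lower on average and overlapped between the groups. Lrpprc read 65.6, 60.9 and 44.0 TPM under Vehicle and 37.6, 62.3 and 30.7 TPM under PGE2. Slirp read 137, 78.8 and 185 TPM under Vehicle and 66.4, 175 and 62.0 TPM under PGE2. For Slirp, PGE2 2 was the highest PGE2 library, and Vehicle 3 was the highest of all.

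Proteins of the mitochondrial ribosome split evenly, with 16 of 32 higher in the small subunit and 24 of 47 in the large (median log2 changes 0.01 and 0.00). Mrpl27, of the large subunit, was the only gene of these nuclear lists with an unadjusted p under 0.05 and no overlap. It read 17.0, 12.5 and 5.29 TPM under Vehicle and 30.9, 22.5 and 24.2 TPM under PGE2. Its log2 change was 1.21, with a limma p of 0.0262 before and 1.00 after Benjamini-Hochberg adjustment. Among regulators of mitochondrial biogenesis, 2 of 14 tested genes were higher and 12 lower (median -0.29, and -0.50 without PGE2 1), and 0 had an unadjusted p under 0.05. Ppargc1a, the coactivator PGC-1α, was low, at 1.44, 1.06 and 2.60 TPM under Vehicle and 0.50, 1.98 and 1.33 TPM under PGE2.

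**Figure D5:**
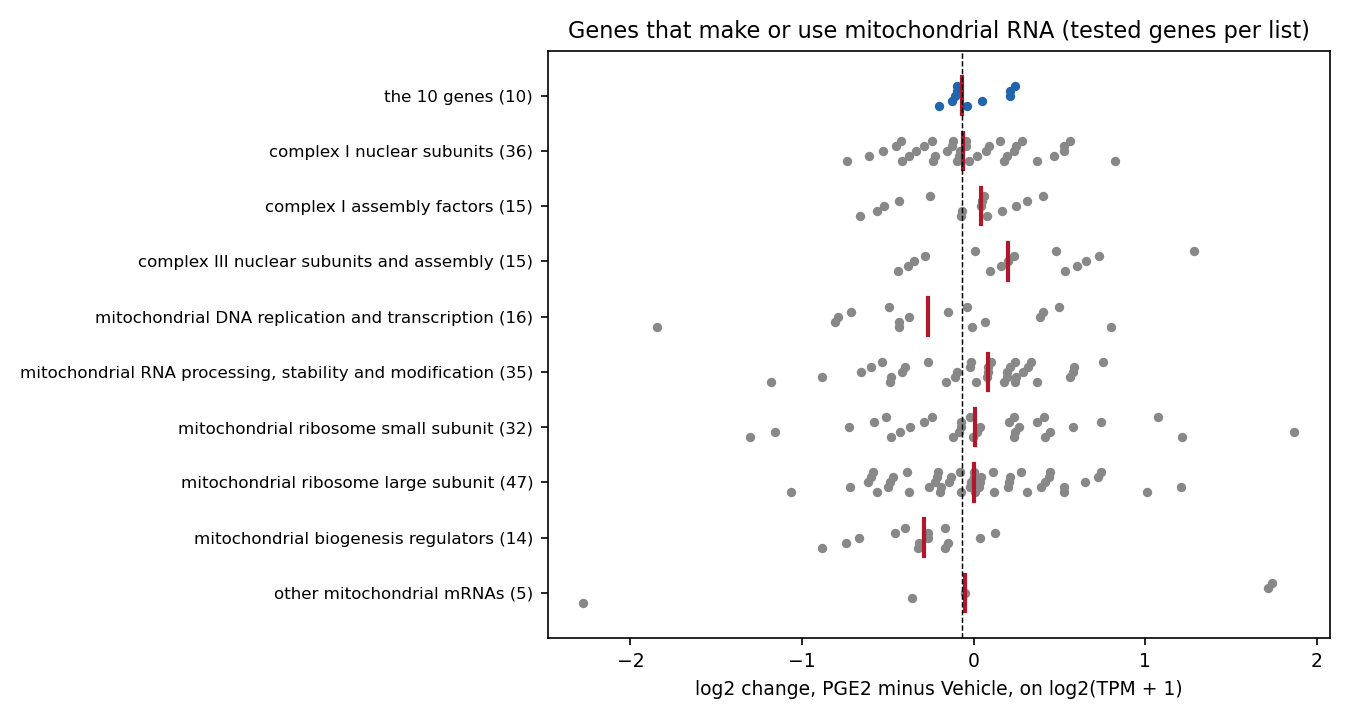
Log2 change with PGE2 of each tested gene (points) in the 10 mitochondrial genes (blue) and in lists of other genes of mitochondrial RNA and the respiratory complexes (grey), with the number tested in parentheses, the median of each list as a red bar and the median of all tested genes as a dashed line. The 10 genes lie close to that line, inside the range of most of the other lists.

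The nuclear protein-coding genes whose levels ran most alike with the summed TPM of the 10 genes were Lamp1, Ube2s, Elovl4, Rrp7a and Tecr, with Pearson's r between 0.974 and 0.996 over the 6 libraries. They were picked as the highest of 7371 genes compared, of which 49 had r above 0.9. That sum is mostly ribosomal RNA. Lamp1, a membrane protein of lysosomes, read 55.0, 76.6 and 102 TPM under Vehicle and 59.95, 65.98 and 83.0 TPM under PGE2.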

How the data were processed

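RNA from mouse muscle stem cells, 3 libraries with DMSO (Vehicle) and 3 with PGE2, was compared in the table of TPM values that the authors deposited. The unit is not named in the file; TPM was taken from the column sums, between 992357 and 995645, and from the tools listed. STAR, RSEM and mm10 stand in the submitters' processing notes, without versions. TPM keeps no depth, so no counting interval is given. How reads were shared between matching sequences is not stated.

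The 12781 genes that reached 1 TPM in 3 libraries or more were fitted on log2(TPM + 1) using limma 3.58.1 (R 4.3.3; trended, non-robust prior). P-values were two-sided and adjusted after Benjamini-Hochberg over the full table, with a threshold of 0.05. The script was tested on simulated data with known changes. For 9 sums and ratios an exact permutation test over libraries was used (scipy, Python 3.11.15). GENCODE M21 gave positions for 42782 genes, and copies were found with blastn among its transcripts. The rule for named genes took the 10 genes, their copies, up to 3 genes per list with an unadjusted p under 0.05 and no overlap, 10 genes always given (5 other mitochondrial messages, Tfam, Polrmt, Lrpprc, Slirp and Ppargc1a) and the 5 most alike genes. The members and lists were chosen with earlier results of these data known. Alternatives covered pseudocount, filter, scaling, variance prior, library weights, replicate number, copies and each library left out.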

Additional observations from a re-analysis of the deposited data

How the results depend on the processing

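None of the 10 genes passed limma's test under any setting run, and the sign of each turned under at least 1. Of 190 alternative values for the 10 genes 162 kept their sign and 28 turned. Quantile normalization gave log2 changes of -0.15 for mt-Nd1, -0.0051 for mt-Nd2 and 0.078 for mt-Rnr2. Library weights gave 0.21 for mt-Nd3, 0.13 for mt-Nd5, 0.16 for mt-Nd6 and 0.087 for mt-Cytb, and median-ratio scaling gave 0.0155 for mt-Cytb. Summing with nuclear copies gave 0.20 for mt-Nd3 and -0.0247 for mt-Nd4l, and the sum by length, added after the data were seen, gave 0.20 and -0.0226. The median over all tested genes was -0.07, and it was -0.02 with median-ratio scaling or quantile normalization. The cause of these turns was not tested.

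With each library left out in turn, log2 changes ran from -0.21 to 0.41 for mt-Nd1, -0.067 to 0.63 for mt-Nd2, -0.37 to 0.31 for mt-Nd3, -0.23 to 0.69 for mt-Nd4, -0.25 to 0.66 for mt-Nd4l, -0.41 to 0.30 for mt-Nd5, -0.71 to 0.53 for mt-Nd6, -0.17 to 0.16 for mt-Cytb, -0.55 to 0.19 for mt-Rnr1 and -0.26 to 0.0089 for mt-Rnr2. mt-Nd2, mt-Nd4 and mt-Nd4l turned without PGE2 2, the ribosomal RNAs without Vehicle 3, and mt-Nd3, mt-Nd5, mt-Nd6 and mt-Cytb without Vehicle 1 or PGE2 1. mt-Nd1 turned without Vehicle 2, PGE2 2 or PGE2 3. In the same way the difference in share of TPM ran from -5.11 to 1.08 percentage points for the 10 genes, -6.10 to 0.78 for the ribosomal RNAs, -0.48 to 1.56 for complex I messages and -0.0374 to 0.0488 for mt-Cytb. The log2 ratio differences ran from -0.18 to 0.29 for mt-Rnr2 over mt-Rnr1, -0.64 to 0.25 for ribosomal RNAs over messages, -0.49 to 0.0013 for mt-Nd6 over the other complex I messages, -0.20 to -0.05 for mt-Nd5 over mt-Nd1 and -0.10 to 0.22 for mt-Nd3 and mt-Nd4l over mt-Nd1. List medians ran from -0.27 to 0.075 for complex I assembly, 0.13 to 0.46 for complex III, -0.25 to 0.04 for mitochondrial DNA replication and transcription, -0.50 to -0.24 for biogenesis regulators and -0.15 to 1.37 for the other mitochondrial messages.

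Over all tested genes, 0 passed the test in the main analysis, 1 with a robust variance prior, 4 with a prior without a trend (added after the data were seen), and 0 to 2 with a library left out: 1 each without Vehicle 1, PGE2 1 or PGE2 2 and 2 without PGE2 3. None of them was among the 10 genes. A fit with the replicate number as a block left 0 genes past the test and 482 at an unadjusted p under 0.05. Its log2 changes are the same by design (mt-Nd1 0.05), since each number has a library in each group. Deviations of libraries with the same number correlated at -0.06, -0.04 and 0.07, so the numbers were not taken as pairs. TPM holds no depth, so counting error cannot be set apart from the spread between libraries.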
